A study of Mus musculus with 8 samples.

Results

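A pair of single-cell libraries of cultured mouse hippocampal progenitors, both collected 4 days after growth factors were withdrawn, were compared cell state by cell state and gene by gene. Their members were all cells whose sample name in the deposited cell table begins with d4. These were 6045 of 30408 cells, 2534 under the Kmt2d+/βgeo label and 3511 under the wild-type label. Neural stem and progenitor cells had been taken from the dentate gyrus of embryos at embryonic day 18 according to the labels (the study's methods give an earlier day), and both genotypes were littermates of C57BL/6J females crossed with Kmt2d+/βgeo males. The Kmt2d+/βgeo label of one library stands for the gene trap allele Mll2Gt(RRt024)Byg, a model of Kabuki syndrome. The other library is labelled wildtype, strain C57BL/6J. All cells of both libraries had been expanded with EGF and FGF2 and then deprived of them to induce neuronal differentiation. RNA was captured with the 10x Chromium 3′ v3 kit, which counts unique molecular identifiers (UMIs). The labels do not say how many embryos or cultures each library holds, and there is 1 library per genotype and day, at days 0, 2, 4 and 8. No test between libraries was therefore possible, no p-value is given, and intervals cover counting error only.

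Dentate gyrus progenitors grown with EGF and FGF2 divide as radial glia-like cells and can give rise to neurons, astrocytes and cells of the oligodendrocyte lineage. Astrocytes are known for lipid carriers such as apolipoprotein E, for the uptake of glutamate and GABA, for glutamine synthetase and for metallothioneins. In a single-cell library, a gene that varies between cells more than other genes of the same mean level can mark cells in different states. Variation within a state and estimation error can have the same effect. Cultures can therefore be compared in their average levels, in the states their cells occupy and in which genes vary.

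The label of one library needs a caution before any result. A total of 29 genes had a log2 ratio of at least 1 between the labels, with 1 sign, on each of days 0, 2 and 8, a choice that did not use day 4. For these genes, day 4 cells under the Kmt2d+/βgeo label had the levels of cells labelled wild type. In cells thinned to 3000 UMIs, the 17 genes that were higher in libraries labelled Kmt2d+/βgeo summed to a mean of 3.62, 4.17 and 6.00 UMIs per cell there on days 0, 2 and 8, the last from the 2204 of 2965 cells that had enough UMIs. The corresponding sums in libraries labelled wild type were 1.06, 0.949 and 1.31 UMIs. At day 4 the sum was 0.957 UMIs under the Kmt2d+/βgeo label and 1.00 under the wild-type label, so both lay in the wild-type range. The highest sum in any single cell of the day 4 library labelled Kmt2d+/βgeo was 7 UMIs. The 12 genes that were lower on the other days summed to 1.37, 4.13 and 3.97 UMIs in libraries labelled Kmt2d+/βgeo on days 0, 2 and 8. In libraries labelled wild type they summed to 4.52, 11.1 and 16.9 UMIs, so they changed with the day as well. At day 4 they summed to 14.0 (Kmt2d+/βgeo) and 14.5 UMIs (wild type). Luzp2, a leucine zipper protein gene, had mean normalised counts of 0.287, 1.48 and 2.62 under the Kmt2d+/βgeo label on days 0, 2 and 8, but 0.0502 at day 4, where the library labelled wild type had 0.0422. Rnf180, which encodes a ubiquitin ligase, had 0.688 and 0.693 at day 4. Kmt2d itself, the histone methyltransferase gene that carries the trap, was at 0.295 and 0.237, and whether the 3′ tag reads the trapped allele was not tested. Values are therefore given by label, and a difference between the day 4 libraries is not read as one of genotype.

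Both libraries were deep enough to compare cell by cell. Median depth was 20261 UMIs per cell under the Kmt2d+/βgeo label and 17557 under the wild-type label, of which 8908 and 7988 fell on the 9140 genes of the deposited matrix. A median of 3235 and 3009 of these genes was detected per cell. Only 2 cell barcodes occurred in both libraries, within the range of 0 to 10 over all 28 pairs of libraries. All 6045 cells had at least 3000 UMIs on the matrix genes, so that thinning to this depth left out 0 of them.

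Cells of both libraries occupied the same states. The 6045 cells were clustered together, with no alignment of the libraries, on 20 principal components of 1000 variable genes. If the libraries were fully mixed, the share of a cell's 15 nearest neighbours that came from the other library would equal that library's share of the cells. The observed share was 0.940 of that value for cells labelled Kmt2d+/βgeo and 0.919 for cells labelled wild type. When the same was done for the libraries of the other days, ratios of 0.0823 and 0.0401 were found for day 0, 0.0612 and 0.0717 for day 2, and 0.0158 and 0.00739 for day 8. The day 4 cells were thus close to fully mixed, whereas cells of different labels on any other day were almost never neighbours. In thinned cells the day 4 ratios were 0.984 and 0.923. Mixing was weaker in the small cluster described below as cluster 5, where 67.2% of the neighbours of cells labelled wild type had that label, against 56.9% of the cluster's cells.

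**Figure D1:**
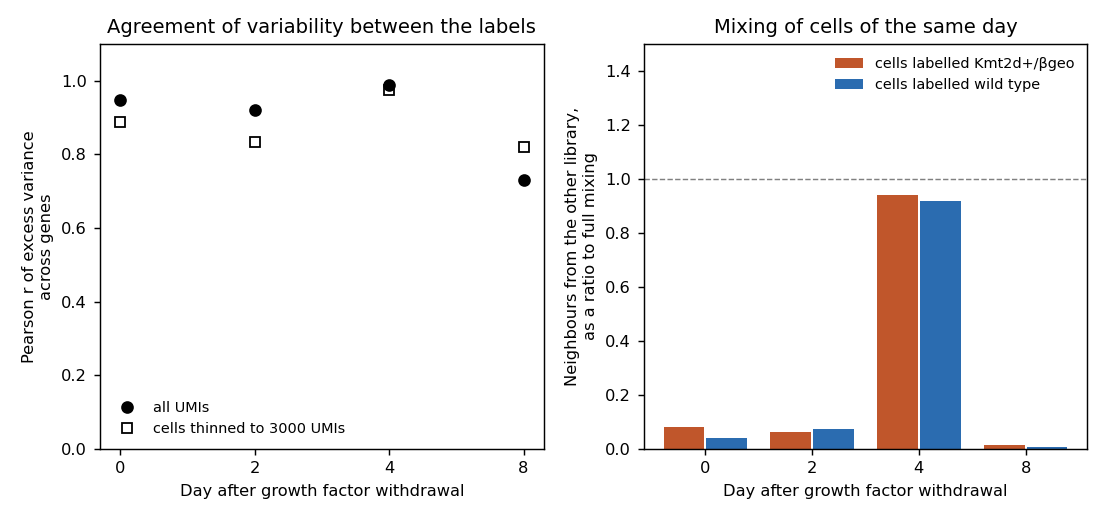
Likeness of the libraries of both labels on each day (x axis, days after growth factor withdrawal). Left, Pearson correlation across genes of excess variance, for all UMIs (filled circles) and for cells thinned to 3000 UMIs (open squares); right, share of nearest neighbours from the other library as a ratio to full mixing (bars; dashed line, full mixing), which reached 0.940 and 0.919 at day 4 and stayed under 0.1 on the other days.

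A total of 6 clusters were found, here numbered by size. Cluster 1 held 30.1% of the cells labelled Kmt2d+/βgeo (95% Clopper-Pearson interval 28.3 to 31.9) and 31.0% of those labelled wild type (29.4 to 32.5). Cluster 2 held 25.7% and 27.6%, cluster 3 22.5% and 19.8%, and cluster 4 14.1% and 14.4%. The smallest, clusters 5 and 6, held 6.31% and 6.01%, and 1.34% and 1.34%. The difference was within counting error in 5 of the 6 clusters. In cluster 3 it was 2.69 percentage points, with an interval of 0.608 to 4.79. The share of cells that would have to change cluster to make the libraries alike (0.5 of the summed absolute share differences) was 2.996 points. It ranged from 0.161 to 7.16 points over the other clusterings tried, with the number of clusters they gave. In 3 of these 8 clusterings the match of cluster 3 was a merged cluster. In the other 5 its difference was between 1.17 and 3.60 points, higher under the Kmt2d+/βgeo label each time. The difference in cluster 2, -1.84 points, depended on the clustering: it was -4.37 and 1.098 points with clusters built on the library labelled Kmt2d+/βgeo or wild type alone, and 1.82 and 4.27 points in thinned cells and without the 5% deepest cells, where cluster 2 was merged with cluster 3. Cluster 6 was found again in each clustering, with at least 0.900 of its cells shared (Jaccard index), whereas the borders among clusters 1 to 5 moved, and the adjusted Rand index of these clusterings against the one described was between 0.255 and 0.552.

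**Figure D2:**
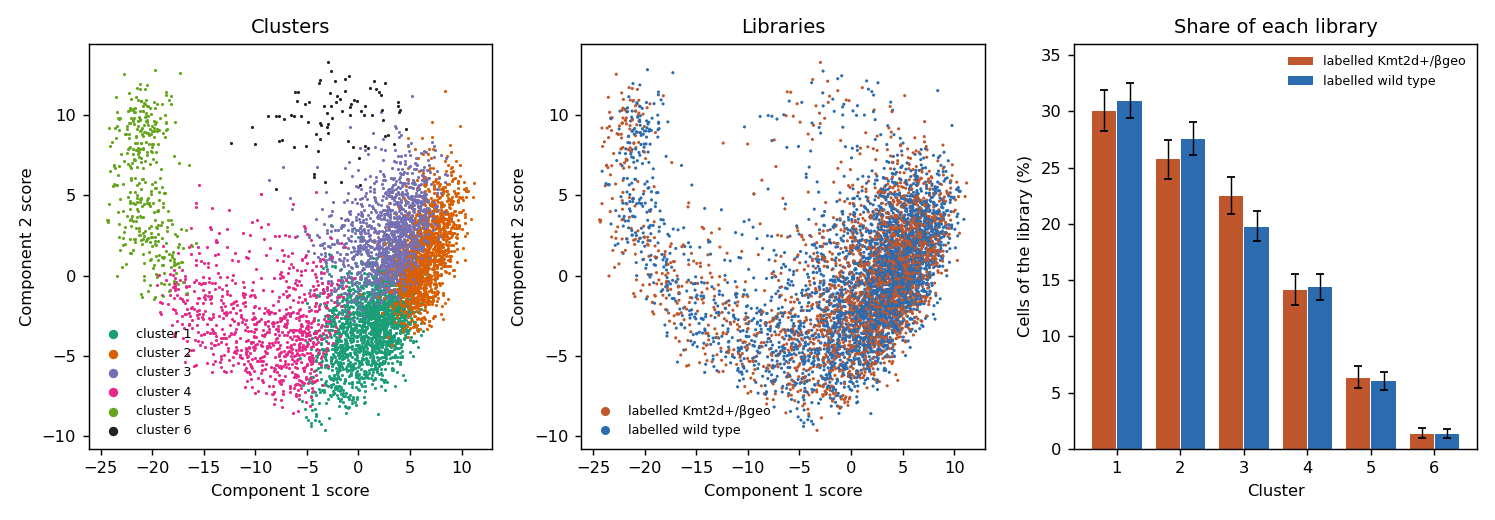
The 6045 day 4 cells on the first and second principal components (scores, no unit), coloured by cluster (left) and by library (middle), and the share of each library's cells in each cluster (right, percent; error bars, 95% Clopper-Pearson intervals). The libraries overlie one another in every cluster, and the largest difference in share is that of cluster 3, 22.5% against 19.8%.

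The clusters were described by their leading genes, which were also used to find them and are therefore a description. Leading genes had a mean of at least 0.5 normalised counts within the cluster. Counts of list members are given beside the share of all 9140 genes past the same log2 ratio of 1. The lists were chosen with earlier results of these data known, so these counts are a description too. Cluster 1 led with Aebp1, a secreted collagen-binding protein, and with A2m, a protease inhibitor, whose mean normalised counts were 0.936 and 0.811 within the cluster in the libraries labelled Kmt2d+/βgeo and wild type, against 0.339 in all other cells. Cacng5, a subunit that associates with AMPA receptors, also led it. This cluster had the highest level of Ecrg4, the precursor of a secreted peptide, with a mean log2 of 3.77 and 3.80. Of the 19 astrocyte genes measured, 0 were higher by a log2 ratio of 1 or more in this cluster than in the other cells, against 0.23% of all genes, and 1 was lower, against 0.777% of all genes.

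Cluster 2 led with Gas6, a ligand of the TAM receptor kinases, at 0.731 and 0.715 normalised counts against 0.140 elsewhere. Rida, a deaminase of reactive metabolic intermediates, and Lix1 came next. Glul, glutamine synthetase, had its highest mean log2 there, 2.98 and 3.01. Slc1a2, the main glutamate transporter of astrocytes, had 2.55 and 2.45, below cluster 6 with 3.10 and 2.69. Apoe stood at 8.33 and 8.18 and Mt3 at 7.20 and 7.69, the highest levels of any cluster for both genes in both libraries. Cdkn1a, the cyclin-dependent kinase inhibitor p21, was also highest there, at 1.83 and 1.83. The astrocyte list had a median log2 ratio of 0.69 in this cluster over all other cells, with 2 of 19 genes higher by at least 1 and 0 lower. Of 21 measured transporter and channel genes of astrocytes, 4 were higher by at least 1, against 1.24% of all genes, and 0 lower, against 1.95%.

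Cluster 3 led with Idi1, an enzyme of isoprenoid synthesis, and with Fabp7, the brain fatty acid binding protein of radial glia. Fabp7 reached a mean log2 of 5.34 and 5.22, against 3.42 and 3.38 in cluster 1 and 6.87 and 6.92 in cluster 6. Hmgcs1, which makes HMG-CoA for the cholesterol pathway, had 2.25 and 2.14, against 2.00 and 2.21 in cluster 6. Idi1 had 0.48 and 0.51, against 0.46 and 0.48 in cluster 6, so the levels of these enzymes did not set cluster 3 apart from cluster 6. Of 18 measured genes of cholesterol synthesis, 6 were higher by a log2 ratio of at least 1 in this cluster, against 0.164% of all genes, and 0 lower, against 1.58%, with a median ratio of 0.59. Among them were Msmo1 and Fdft1, further enzymes of the same pathway. Vcam1, an adhesion molecule of adult neural stem cells, and Slc6a11, the GABA transporter GAT3, were also among its 5 leading genes. The GABA transporter had 2.83 and 2.66, against 1.69 and 1.56 in cluster 1 and 2.82 and 3.04 in cluster 6.

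Cluster 4 led with Adamts12, a metalloprotease, Elfn1 and Megf11. Not all of these set it apart from cluster 5. Megf11 had a mean of 0.732 normalised counts in cluster 4 and 1.65 in cluster 5. Adamts12 had 0.751 and 0.649 in cluster 4, and 0.709 and 0.614 in cluster 5. Ackr3, the atypical receptor for CXCL12, had a mean log2 of 1.14 and 1.17 in cluster 4. Draxin, a repulsive guidance protein, had 1.90 and 1.81 in cluster 4. Both genes had their highest mean in this cluster in both libraries. Astrocyte genes were low in it. Of the 19 measured, 11 were lower by a log2 ratio of at least 1, against 4.62% of all genes, and 0 higher, against 1.4%, and Sparcl1 had a mean log2 of 2.53 and 2.69, against 5.005 and 4.99 in cluster 2. Olig2, a transcription factor of the oligodendrocyte lineage that progenitors in culture also express, was at 1.94 and 2.02, between cluster 1 and cluster 5.

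Cluster 5 had the most genes past a log2 ratio of 1, but it merged with cluster 4 in 3 of the other clusterings. Its leading gene was Dcc, the netrin receptor, at 0.738 and 0.591 normalised counts against 0.00417 in all other cells. Lhfpl3 and Bcas1 of the oligodendrocyte lineage list and Elavl3 of the neuron list were among its 10 leading genes. Olig2 reached a mean log2 of 3.88 and 3.73. Of the measured genes, 6 of 9 in the oligodendrocyte lineage list, 8 of 13 in the neuron list and 9 of 11 in the cycling list were higher by a log2 ratio of at least 1, against 8.98% of all genes, so the cluster was not given a cell type name. Only 8.12% and 8.53% of its cells had a UMI of Top2a, against 2.24% to 7.36% in clusters 1 to 4, so few cells carried the ratio of this gene. Of the 19 astrocyte genes, 17 were lower by at least 1, against 14.1% of all genes. Sparcl1 had a mean log2 of 0.41 and 0.70, and Gja1, the gap junction protein connexin 43, stood at 0.09 and 0.12. Apoe was still at 3.75 and 3.99, and RNA free in the droplets was not measured.

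Cluster 6 had 34 and 47 cells. It led with Top2a, the DNA topoisomerase of dividing cells, followed by Adam12, Igfbp2 and Etv4, an ETS factor. Igfbp2, a binding protein of insulin-like growth factors, had a mean log2 of 4.49 and 4.47 there and at most 1.27 in any other cluster. Fabp7 was at its highest, 6.87 and 6.92. Of 11 cycling genes measured, 8 were higher by a log2 ratio of at least 1, against 4.81% of all genes, and 0 lower, against 10.8%. Top2a itself had a mean log2 of 0.69 and 0.72, and 29.4% and 21.3% of the cells had a UMI of it. The median total UMI count was 25619 per cell, the highest of the clusters. Doublets had been removed by the authors before deposit and were not called again.

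**Figure D3:**
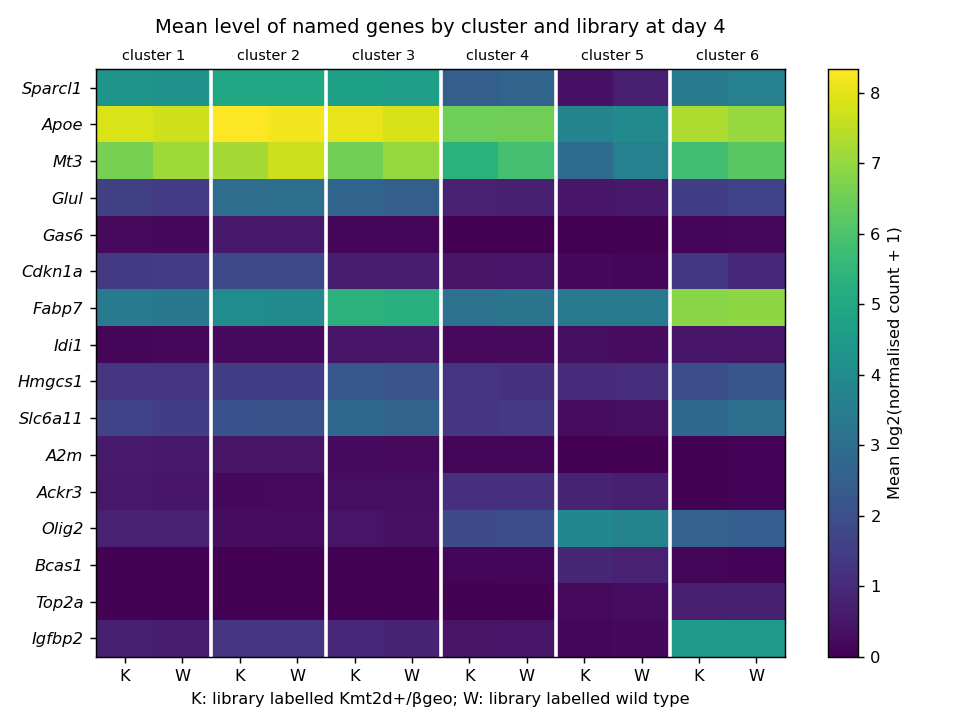
Mean log2(normalised count + 1) of 16 genes (rows) in each of the 6 clusters, with the library labelled Kmt2d+/βgeo (K) and the library labelled wild type (W) side by side (colour scale from 0). Columns of a cluster look alike, and Mt3 was lower under K in every cluster, for example 7.20 against 7.69 in cluster 2.

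Profiles of the clusters were compared between the libraries. For each cluster, log2 ratios over all other cells of the same library were computed separately in each library. They covered 3300 to 3833 genes with a mean of at least 0.5 normalised counts inside or outside the cluster. The correlation of these ratios across genes lay between 0.890 for cluster 6 and 0.975 for cluster 5. The clusters were built on the pooled cells from the same values, so this agreement is partly set by the clustering and is a description. When each library was clustered on its own, it gave 6 clusters in each case. Each cell was then assigned to the nearest cluster centre of its own library and to the nearest of the other library. These assignments matched with an adjusted Rand index of 0.560 for cells labelled Kmt2d+/βgeo and 0.565 for cells labelled wild type, where 1 is a perfect match. The clusters each library gave on its own matched the pooled clusters with 0.379 and 0.402.

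Variability between cells was measured next. For each gene and library, the variance of the log2 values was set against the trend of variance with mean over all genes, and the difference is called excess variance. Over 7294 genes with a mean normalised count of at least 0.1 in both libraries, excess variance correlated between the libraries with a Pearson r of 0.988 and a Spearman rho of 0.880. Of the 200 genes with most excess variance in each library, 180 were shared, and these were 2.47% of all genes ranked. Of the leading 100 genes 95 were shared, and of the leading 500 genes 445. Every leading gene of the library labelled Kmt2d+/βgeo ranked within the first 299 in the library labelled wild type. In the other direction the lowest rank was 588, that of Btf3, a transcription and nascent chain factor. The differences of excess variance between libraries had an SD of 0.0163 across genes, and only 3 genes differed by 0.2 or more. Correlations across genes are a description, since all genes of a library share its cells and depth.

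**Figure D4:**
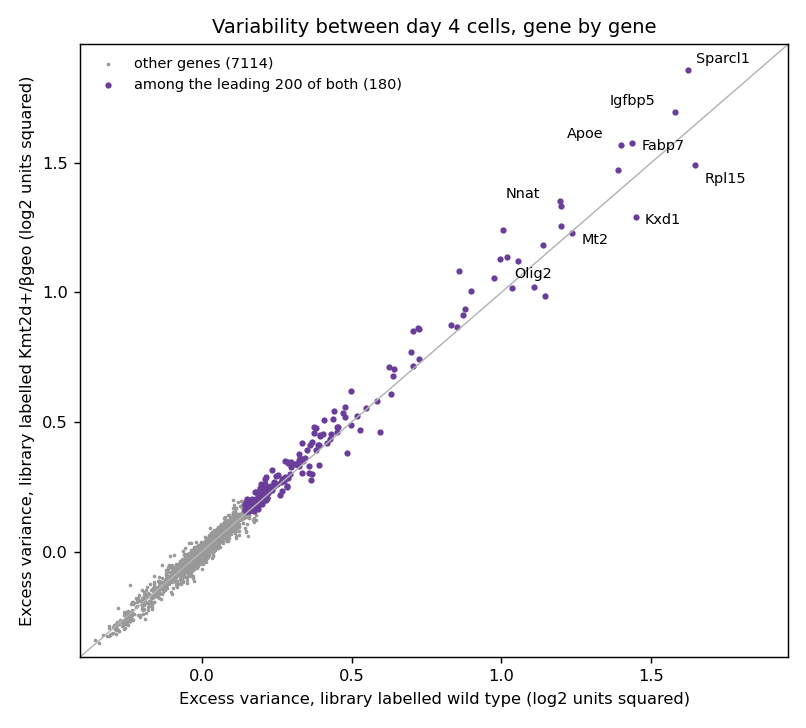
Excess variance (variance of log2 values over the trend with the mean, log2 units squared) of each of 7294 genes in the library labelled wild type (x axis) and in the library labelled Kmt2d+/βgeo (y axis); purple points are the 180 genes among the leading 200 of both, and the line marks equal values. Sparcl1 lies highest, at 1.62 and 1.86, and the points keep close to the line along its whole length.

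By Pearson correlation and by the number of leading genes shared, the agreement was closer than on the other days. Over 6164 genes that passed the minimum in all 8 libraries, excess variance correlated between the labels with a Pearson r of 0.989 for day 4, 0.949 for day 0, 0.921 for day 2 and 0.731 for day 8. The number shared among the leading 200 was 183 for day 4, 155 for day 0, 162 for day 2 and 125 for day 8. In thinned cells, 5938 genes passed in all 8 libraries. Their Pearson correlations were 0.976, 0.888, 0.834 and 0.820 for days 4, 0, 2 and 8, in the same order. The Spearman correlation did not keep day 4 first. With all UMIs it was 0.882, 0.866, 0.878 and 0.585 for days 4, 0, 2 and 8. In thinned cells it was 0.725, 0.741, 0.756 and 0.609, so day 4 lay below days 0 and 2. Thinning left out 761 of the 2965 cells of the day 8 library labelled Kmt2d+/βgeo, which had fewer UMIs, so its thinned values are those of its deeper cells. Depth differed most between the libraries of day 8, with medians of 7926 and 14243 UMIs per cell. With all UMIs, the Pearson correlation at day 4 was also above that of each day 4 library with its neighbours in time under the same label. Those values were 0.825 and 0.863 with day 2 and 0.633 and 0.880 with day 8, with the Kmt2d+/βgeo label first. That library of day 4 stood at 0.865 with the day 2 library labelled wild type and at 0.863 with that of day 8, above its values with its own label.

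Agreement differed with level. Genes were split by mean level into 4 groups of equal size. In the highest group the Spearman correlation of excess variance was 0.965, and in the lower groups it was between 0.782 and 0.855. After thinning all cells to 3000 UMIs, and over the 7087 genes that passed the minimum in both day 4 libraries, 156 of the leading 200 were shared and the Pearson and Spearman correlations were 0.919 and 0.711. The fitted trend was unsteady at the highest means in thinned cells: excess variance of Apoe was then -0.00949 under the Kmt2d+/βgeo label and 0.910 under the wild-type label. With a running median as the trend in thinned cells, the Pearson correlation over these genes was 0.976 and 169 genes were shared, while the Spearman correlation, 0.704, was no higher.

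The shared genes with the highest ranks included genes of astrocytes and radial glia. Sparcl1, a secreted matrix glycoprotein of astrocytes, ranked 1 and 2, with mean normalised counts of 23.4 and 22.99 and an SD over cells of 1.53 and 1.45 on the log2 scale. Igfbp5, another binding protein of insulin-like growth factors, ranked 2 and 3 with an SD of 1.51 and 1.49. Fabp7 ranked 3 and 5, and Apoe, the most abundant of them at 244 and 224 normalised counts, ranked 4 and 6. Both libraries thus placed these 4 genes among their first 6. On GRCm38 they lie on chromosomes 5 (Sparcl1, 104079111 to 104113733), 1 (Igfbp5, 72857932 to 72874884), 10 (Fabp7, 57784881 to 57788450) and 7 (Apoe, 19696109 to 19699188). Pla2g7, a secreted phospholipase, ranked 6 and 7, Ecrg4 8 and 9, and Nnat, an imprinted membrane protein gene, 7 and 11. Cst3, the protease inhibitor cystatin C, ranked 10 in both, Glul 13 in both, Mt2 12 and 8, Mt3 16 and 15, and Slc4a4, a sodium bicarbonate cotransporter, 14 and 17.

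For some of these genes most of the variance lay between the clusters. For Sparcl1, 64.6% and 60.1% of the variance of log2 values was between clusters in the libraries labelled Kmt2d+/βgeo and wild type. For Apoe it was 71.0% and 65.7%, and for Olig2, which ranked 15 and 19, it was 53.8% and 54.6%. For Igfbp5 it was 22.5% and 20.3% and for Nnat 14.2% and 14.9%, so these genes varied mostly within the clusters. Over the 180 shared genes the median was 17.1% and 15.3%, against 0.863% and 0.729% over all genes ranked; the clusters were built from variable genes, so this is a description.

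A further kind of gene varied as strongly with little relation to the states. Rpl15, a ribosomal protein gene, ranked 5 and 1, Kxd1, a subunit of a complex that positions lysosomes, 9 and 4, and Rps7, another ribosomal protein gene, 11 and 18. Only 2.79% and 2.06% of the variance of Rpl15 lay between clusters, and 1.61% and 0.949% of that of Kxd1. The deposited values derive from estimated UMI counts, in which a read that fits several genes can be split. Of the nonzero values of Rpl15, 39.6% and 37.9% were not within 0.01 of a whole UMI, and of Rps7 63.9% and 63.2%. For Sparcl1 the shares were 1.38% and 2.04%. For Apoe, most of whose variance lay between clusters, they were 34.9% and 40%, so such values were not limited to genes with little relation to the states. Among the 180 shared genes, 67, with Apoe among them, had 20% or more of such values in either library (37.2%, against 22.1% of all genes ranked). Their median variance between clusters was 6.55% and 5.88%, whereas that of the other 113 was 22.6% and 20.6%. Rdh5 and Bloc1s1 belong here: their annotated spans overlap on chromosome 10 (128913593 to 128922888 and 128917882 to 128924035, GRCm38), both were in the leading 26 of both libraries, and their values correlated over cells at -0.575 and -0.591. The part of the splitting of reads in the variability of such genes was not tested. Without the genes with 20% or more of such values, the correlation of excess variance was 0.990 and 186 of the leading 200 were shared.

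Named groups of genes differed widely in how many of their members were in both leading lists, where 2.47% of all genes ranked were. The groups were chosen with earlier results of these data known, so these counts are a description. Of 19 astrocyte genes ranked, 14 were (73.7%), from Sparcl1 and Apoe to S100b and Aldh1l1. Of 9 radial glia and progenitor genes, 5 were, among them Fabp7, Hopx, a marker of quiescent stem cells, Sox9, a glial fate factor, and Vim, an intermediate filament. Of 17 genes of reactive astrocytes and the actin cytoskeleton, 10 were, for example Lgals1, Cryab and Anxa2. Of 26 lipid genes 9 were, and of 21 astrocyte transporters 8, including Slc1a2, Slc1a3 and Slc6a11. The lists overlap, so these counts are not of separate genes. Glul, Slc4a4, Slc1a2, Gja1 and Slc1a3 of the transporters were also counted as astrocyte genes, as were Apoe, Dbi and Acsbg1 of the lipid genes. Fabp7, Vim, Sparcl1 and Cst3 were likewise counted again, under other lists. The neuron list had 5 of 9, Map1b, Stmn3, Mapt, Map2 and Nsg2, and the oligodendrocyte lineage list 3 of 9, Olig2, Cspg5 and Lhfpl3.

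Other groups had a smaller share of members in both lists. None of 8 cycling genes, 16 genes of glycolysis and hypoxia, 7 Notch genes and 6 interferon genes ranked was in both lists, where the share over all genes would give less than 1 gene of each. Of 25 genes of the stress and unfolded protein response only Phgdh and Slc7a11 were, of 26 lysosomal genes Cst3 and Lamp2, of 16 cholesterol genes Hmgcs1 and Msmo1, of 13 genes of BMP signalling Id3, and of 42 ribosomal protein genes Rpl15 and Rps7. Of 23 extracellular matrix genes 6 were, and of 5 immediate early genes ranked Dnaja1. Cells other than neural ones were barely covered, since the gene table analysed holds 1 listed gene each for ependymal cells, mural cells and fibroblasts. All were low in mean level, and Fn1 of the fibroblast list was the highest of them, at 0.218 and 0.196 normalised counts. It holds 0 of 21 genes of intermediate progenitors and neuroblasts and 13 of 30 neuron genes, so little can be said of neurons from it.

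The shared genes were in part among the most variable on other days too. Of the 180, 83 and 87 were among the leading 200 of the day 0 libraries labelled Kmt2d+/βgeo and wild type, 124 and 131 at day 2, and 93 and 123 at day 8. Their mean levels changed over the days. Apoe had a mean log2 of 2.79 and 2.04 on day 0, 7.25 and 6.74 on day 2, 7.56 and 7.47 on day 4, and 6.10 and 7.66 on day 8, with the Kmt2d+/βgeo label first. Igfbp5 stood at 0.24 and 0.41, 0.66 and 0.48, 2.12 and 2.07, and 3.21 and 3.80 in the same order. Sparcl1 had 1.61 and 2.54, 2.23 and 3.34, 4.07 and 4.09, and 2.10 and 3.62, again by day. For Sparcl1 and Igfbp5, the day 4 pair differed by less than the pair of any other day.

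Pairs of genes had similar correlations in both libraries. The correlation over cells was computed for all 16110 pairs of the 180 shared genes within each library, and these values correlated with each other at 0.990. In thinned cells the correlation was 0.976. With 200 genes chosen on the other days only, the correlation was 0.984 at day 4, against 0.856, 0.916 and 0.800 for days 0, 2 and 8. Among the strongest positive pairs was Apoe with Sparcl1, at 0.754 and 0.725. Olig2 ran against both of them, at -0.659 and -0.619 with Apoe and at -0.643 and -0.604 with Sparcl1. Cells with more Olig2 thus tended to have less of both genes.

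The axes of variation matched as well. Principal components were computed in each library alone on the same 1000 genes, and the absolute cosine between the gene weights was 0.995 for the first, 0.987 for the second and 0.921 for the third component, where 1 means identical weights. For components 4 to 6 it was between 0.874 and 0.910. In thinned cells the first 3 values were 0.989, 0.962 and 0.890. The first component held 9.83% and 8.65% of the variance and the second 2.499% and 2.28%. On the pooled cells, component 1 ran from Sparcl1, Apoe and Mt2 to Olig2, Ncald, a neuronal calcium sensor, and Basp1, a membrane protein of growing axons. Component 2 ran from Fabp7, Cspg5 and Glul to Ecrg4, Olfm2 and Slc38a1. The third component ran from the transporters Slc6a11, Slc1a2 and Slc4a4 to Tubb2a and Ccnd2, and on it the mean scores of the libraries were 0.576 and -0.416, with an SD over cells of 2.93 and 2.86. On component 5 they were 0.503 and -0.363, with an SD of 2.35 and 2.28. In each library alone, scores on the third component correlated with the log of a cell's depth at 0.181 and 0.329, and those on the fifth at 0.368 and 0.304, and the part of depth in these differences was not tested.

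Metallothioneins were among the most tightly paired genes. Mt2 and Mt3 encode small cysteine-rich proteins that bind zinc and copper, Mt3 being the brain form. They lie next to each other on chromosome 8 (Mt3 94152607 to 94154146, Mt2 94172664 to 94173568, GRCm38). Their correlation over cells was 0.830 and 0.832, and that of Mt3 with Prdx6, an antioxidant peroxiredoxin, was 0.832 and 0.837, the highest among all pairs in both libraries. The 250 bases before each RefSeq start are shown because levels of Mt2 and Mt3 went together from cell to cell, and those of Hmgcs1 because it varied with the states. Sequences are RefSeq promoters on GRCm38.p6, written 5′ to 3′ on the strand of the gene. For Mt2 the RefSeq start lies upstream of the start in the deposited gene table, so its stretch ends before the latter. Capitals mark matches on either strand. In the metallothionein promoters the motif was TGCNCNC, a looser form of the metal response element core TGCRCNC, where R is A or G. In the Hmgcs1 promoter it was the sterol response element, TCACNCCAC. No matches overlapped.
Mt2, chr8:94172368-94172617, plus strand: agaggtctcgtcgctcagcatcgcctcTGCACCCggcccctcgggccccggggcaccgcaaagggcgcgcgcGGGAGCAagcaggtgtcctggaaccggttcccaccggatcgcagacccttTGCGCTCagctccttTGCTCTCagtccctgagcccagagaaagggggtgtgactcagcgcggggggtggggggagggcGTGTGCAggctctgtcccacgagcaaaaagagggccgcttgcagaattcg
Mt3, chr8:94152357-94152606, plus strand: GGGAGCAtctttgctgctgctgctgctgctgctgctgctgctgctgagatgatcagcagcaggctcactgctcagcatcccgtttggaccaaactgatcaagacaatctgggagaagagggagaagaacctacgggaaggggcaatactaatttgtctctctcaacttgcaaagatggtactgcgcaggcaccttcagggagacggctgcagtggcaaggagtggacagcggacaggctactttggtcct
Hmgcs1, chr13:119690101-119690350, plus strand: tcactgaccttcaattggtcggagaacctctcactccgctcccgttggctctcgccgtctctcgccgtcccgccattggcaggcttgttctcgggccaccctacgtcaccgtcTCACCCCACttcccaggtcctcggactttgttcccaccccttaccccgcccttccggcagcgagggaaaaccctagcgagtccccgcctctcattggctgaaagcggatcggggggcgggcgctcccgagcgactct

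The Mt2 promoter held 5 matches to TGCNCNC and that of Mt3 held 1, at its far end. The Mt3 match and some of those of Mt2 had T where the core has A or G, so they match only the looser form. Of 32851 RefSeq promoters cut to the same length, 44.4% held at least 1 match to TGCNCNC and 0.344% held at least 5. The sterol motif occurred once before Hmgcs1, from 137 to 129 bases before the start, and in 1.05% of all promoters. It had 0 matches in the same stretch of Idi1 and Msmo1, whose values correlated with those of Hmgcs1 at 0.316 and 0.294, and at 0.321 and 0.293. A match is a run of letters and not a site of binding.

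Mean levels were nearly equal. Of 7459 genes with a mean normalised count of at least 0.1 in either day 4 library, 65.9% had a log2 ratio between -0.1 and 0.1, against 20.4% to 32.4% on the other days. The median was 0.04. At least 0.5 was reached by 28 genes (0.375%), with 2 higher (0.0268%) and 26 lower (0.349%) under the Kmt2d+/βgeo label, and a ratio of 1 was reached by 0 (0%). After thinning, 29 genes were higher and 25 lower, so the split between directions depended on this step. None of the marker or pathway lists differed by 0.1 or more in mean log2 except the metallothioneins, which were lower under the Kmt2d+/βgeo label by a difference of -0.45. The astrocyte list had a mean of 3.19 and 3.20, the progenitor list 2.18 and 2.15 and the cycling list 0.192 and 0.182.

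The lower genes were mostly genes with short transcripts. Of the 26, 22 had a median transcript length under 1000 nucleotides (84.6%), against 7.43% of all genes compared, and their median length was 662 nucleotides against 2926. Rps29, a small ribosomal subunit gene on chromosome 12 (69157722 to 69159186), had 8.88 normalised counts under the Kmt2d+/βgeo label and 15.3 under the wild-type label, a log2 ratio of -0.78 with an interval of -0.80 to -0.75 for the pooled counts. Rpl38, of the large subunit, had 7.66 and 13.2, also a ratio of -0.78. Ndufb1-ps, named for a subunit of respiratory complex I, had 1.54 and 2.71 with a ratio of -0.81, and Pet100, a cytochrome oxidase assembly factor, 0.634 and 1.08 with -0.76. The lowest ratio was that of Gm49804, -0.89, from only 231 and 508 UMIs. Other subunits of the respiratory chain and ATP synthase (Ndufa3, Atp5k, Atp5md, Atp5mpl) and of the ribosome (Rps27, Rpl39, Rpl37, Rps21), named after their values were seen, had ratios between -0.73 and -0.52. Mt3, with a median transcript length of 477 nucleotides, was at 101 and 143 normalised counts and a ratio of -0.50, and Mt2 at 29.4 and 38.3 and a ratio of -0.38.

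**Figure D5:**
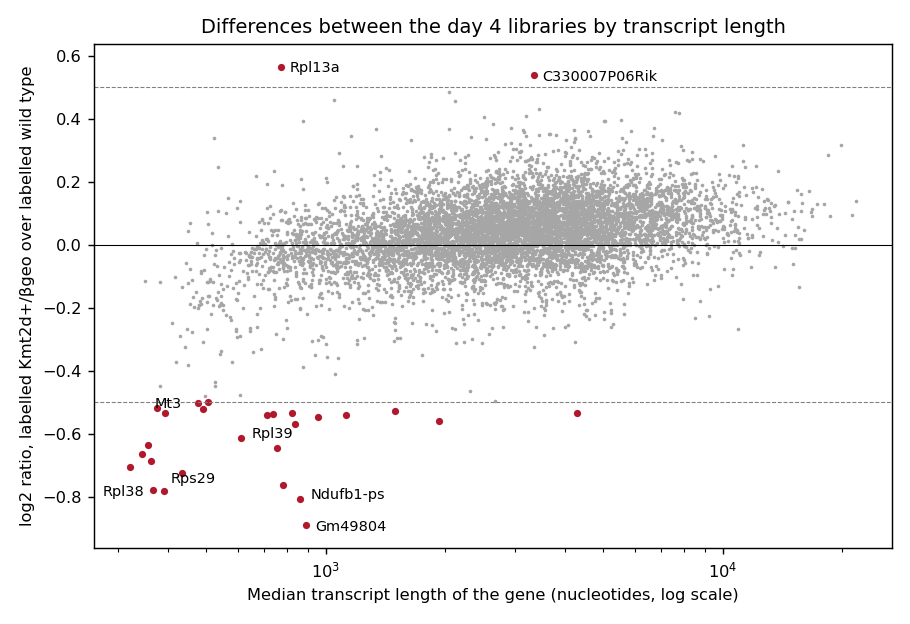
log2 ratio of mean normalised counts at day 4, library labelled Kmt2d+/βgeo over library labelled wild type (y axis; dashed lines at 0.5 and -0.5), against the median transcript length of each gene (x axis, nucleotides, log scale). Red points are the 28 genes past 0.5; 22 of the 26 lower ones are shorter than 1000 nucleotides, and ratios rise with length over all genes.

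The relation ran through all genes. The median log2 ratio was -0.19 for 47 genes under 500 nucleotides, -0.06 for 197 genes of 500 to 750, -0.02 for 310 genes of 750 to 1000, 0.01 and 0.05 for genes of 1000 to 2000 and of 2000 to 4000, and 0.08 for 2305 genes of 4000 or more. Across genes, length and ratio had a Spearman correlation of 0.357. The lower ratios were present in every cell state. All 26 genes were lower in each of clusters 1 to 4, 25 of 26 in cluster 5 and 21 of 24 with counts in cluster 6, with medians between -0.73 and -0.50. The genes were chosen for their ratio over these same cells, so these counts are largely set by the choice and are a description. The ratio of Rps29 lay between -0.81 and -0.76 in all 6 clusters. On the other days the direction of the same genes varied. On day 0, 14 of 22 compared were higher under the Kmt2d+/βgeo label, with a median of 0.20. On day 2, 19 of 22 were lower with a median of -0.97, and on day 8, 21 of 24 were higher with a median of 0.26. Over all genes compared, the medians were -0.037, -0.002 and 0.011 on days 0, 2 and 8. At day 2 the median of genes under 500 nucleotides was -0.46, and at days 0 and 8 it was 0.17 and 0.26. The part of transcript length in these ratios was not tested, and it cannot be told apart from genotype with 1 library per label. Among the 6903 genes of 1000 nucleotides or more, 5 passed 0.5, of which 4 were lower and 1 higher.

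Of the 5 genes with the highest ratios, 4 had many values off a whole UMI, as did 22.1% of all genes ranked by the limit of 20% used above. Rpl13a had 8.18 and 5.53 normalised counts, a log2 ratio of 0.56, and 40.2% and 43.5% of its nonzero values were off a whole UMI. Rpl5 and Rpl17, also ribosomal, had ratios of 0.49 and 0.46, with 45.9% and 47.1%, and 37.9% and 40.2%, of such values. C330007P06Rik had a ratio of 0.54 from 552 and 475 UMIs, with 49.9% and 42.7% of such values, and Gm4221 one of 0.46 from 302 and 295 UMIs. Reads of ribosomal protein genes can be shared with near-identical copies, so their ratios are uncertain. Of the lower ribosomal genes, Rps29 had only 2.76% and 1.91% of such values and Rpl38 6.64% and 2.79%. The part of such values in the ratios was not tested. The level of Ddx3y, a gene of the Y chromosome, was 0.798 and 0.748 normalised counts, a ratio of 0.09.

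Few genes differed in variability. The largest gaps in excess variance toward the library labelled Kmt2d+/βgeo were those of Rps7 (1.24 and 1.00), Sparcl1 (1.86 and 1.62), Tspan3 (1.08 and 0.859), Apoe (1.57 and 1.40) and Nnat (1.35 and 1.19). In the other direction they were those of Ntrk2, the receptor of BDNF (0.986 and 1.14), Kxd1 (1.29 and 1.45), Rpl15 (1.49 and 1.65), Arhgap5 (0.463 and 0.594) and Scd2, a desaturase of fatty acids (0.381 and 0.486). All 10 genes were among the leading 69 of both libraries, so these were differences in degree. In thinned cells the gap turned round for Rps7, Sparcl1, Apoe and Nnat. These thinned values rest on the fitted trend that was unsteady at the highest means, and the turn was not tested with a running median.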

How the data were processed

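Droplet libraries of cultured mouse progenitors were made with the 10x Chromium 3′ v3 kit. The submitters' processing notes name GRCm38, alevin, Salmon 1.3.0 and Seurat 3.2.2. The authors obtained estimated counts of UMIs per gene, removed cells with few genes, outlying cells and likely doublets, removed mitochondrial genes and genes found in fewer than 20 cells, and scaled each cell to a common total. The deposited cell table holds the total UMI count of each cell, with its sample. The deposited matrix holds log2(normalised count + 1) for 9140 genes and 30408 cells. At day 4 a median of 8908 and 7988 UMIs per cell fell on these genes, of 20261 and 17557 in total. The study's methods do not say whether other filters limited the matrix to them. All genes here means these, and a listed gene missing from the matrix was not measured. Scaled back to UMIs, 86.8% of the values above 0 lay within 0.01 of a whole number.

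Mean normalised counts were taken after reversing the log2 scale, so ratios of low genes carry no pseudocount. Excess variance is the variance of log2 values over a lowess trend with the mean (fraction 0.2). Cells were clustered with Leiden (leidenalg 0.10.2, resolution 0.5) on scikit-learn 1.9.0 components. Shares have Clopper-Pearson intervals, share differences Newcombe intervals and pooled count ratios exact conditional intervals, all at 95% and for counting error only. Transcript lengths are the median over the transcripts of a gene in GENCODE M21 basic. Genes were named by rule: 15 with the lowest mean rank of excess variance, up to 3 leading genes per cluster, the 5 highest and 5 lowest ratios between libraries, the 5 in each direction with the largest difference in excess variance, and 3 on each side of a component; members of the lists, and genes said to be named after their values were seen, were added, and some genes that the rule or the lists hold are not reported here. The members and all lists were chosen with earlier results of these data known. With 1 library per label and day no test was run. Scripts were tested on simulated data.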

Additional observations from a re-analysis of the deposited data

Results flagged for a closer look

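The log2 ratio between the library labelled Kmt2d+/βgeo and the library labelled wild type took opposite signs at day 4 and on another day, by at least 0.5 each way, for 4 of the 10 genes with the most extreme day 4 ratios. C330007P06Rik was at 0.54 at day 4 and -0.96 at day 8. Gm49804 was at -0.89 at day 4, 1.302 at day 2 and 0.86 at day 8. Rps29 was at -0.78 at day 4 and 0.56 at day 0, and Pet100 at -0.76 and 0.74. None of these differences between days was tested, since each day has 1 library per label.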

How the results depend on the processing

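No paired analysis was possible because each label has 1 library per day, and for the same reason no replicate could be left out. The correlation of excess variance was 0.968 with the Fano factor, 0.919 in thinned cells, 0.989 with a minimum mean of 0.5, 0.988 without a minimum, with a running median or with the 5% deepest cells left out, and, by alternatives chosen after seeing the data, 0.990 without genes off whole UMIs and 0.976 in thinned cells with a running median. The number shared among the leading 200 stayed between 156 and 186. The share of cells that would have to change cluster was 0.161 and 7.16 points at resolutions of 0.25 and 1.0, 2.93 and 1.96 with 10 and 40 components, 4.63 and 3.65 (3.645) when clusters were built on the library labelled Kmt2d+/βgeo or wild type alone, 2.85 in thinned cells and 5.10 without the 5% deepest cells. Gene-gene correlations agreed at 0.976 in thinned cells, 0.984 with genes of the other days and 0.990 (0.989575) without the 5% of cells. Genes past 0.5 numbered 11 by mean log2, 17 with a minimum mean of 0.5, 80 without a minimum, 54 in thinned cells, 31 after centring on the median gene and, by an alternative chosen after seeing the data, 5 among genes of 1000 nucleotides or more. Lists past 0.1 numbered 3 by the log2 of mean counts. The cosine of component 1 was 0.989 in thinned cells and 0.996 with 500 genes. Mixing, also added, was 0.984 in thinned cells and 0.938 with genes of 1000 nucleotides or more. Why these values moved was not tested. Of the other values recomputed for clusters, lists and named genes, 107 stayed within the limits set and 17 moved. That there is 1 library per label means that no difference can be set against the spread between cultures.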
